A study of Mus musculus with 15 samples.

Results

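The extracellular matrix genes described here are the collagen, laminin and integrin genes of nuclear RNA from mouse heart muscle. They were chosen by symbol: a collagen chain (Col, digits, a, digits), a laminin chain (Lama, Lamb or Lamc with a digit), or any symbol that starts with Itga or Itgb. Of 86 genes with such a symbol, 75 were in the filtered table of 16610 genes, whose counts average 10 or more over all libraries, namely 38 collagens, 10 laminins, 23 integrin subunits and 4 other genes whose symbol starts with Itgb. The other 11, which had a lower mean count, were Col2a1, Col6a4, Col9a1, Col9a2, Col10a1, Col17a1, Lamc3, Itgam, Itgax, Itgb7 and Itgb2l. Itgam had 0 reads, and 99.9% of its length lies under another annotated gene on the same strand.

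Nuclei carrying Pcm1, a centriolar satellite protein used to mark cardiomyocyte nuclei, were sorted from ventricular muscle, and their RNA was depleted of ribosomal RNA and sequenced by a strand-aware kit. The study asks about the progesterone receptor, encoded by Pgr, in the hearts of each sex. The 15 libraries carried the labels Pgr_KO female (4), Pgr_KO male (4), Pgr_WT female (3) and Pgr_WT male (4), and the labels give no other allele, treatment or strain. The tissue label holds the numbers 3 and 6 with no unit, so no age is given here, and no label says that replicates were separate animals, so the p-values below measure the spread between libraries, which may be technical.

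Collagens are triple-helical matrix proteins, of which the fibrillar types I, III and V form the load-bearing network between heart cells and are made mainly by fibroblasts. Laminins are alpha, beta and gamma trimers that assemble with type IV collagen into the basement membrane around each myocyte and capillary. Integrins are alpha and beta heterodimers that bind these proteins at the cell surface, and the alpha7 and beta1 subunits form the main laminin-binding integrin of striated muscle.

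Depth and identity of the libraries bear on all values. Total counts were 24.4 to 139.4 M, with a median of 49.9 M, and 3 counts equalled 0.0219 to 0.117 normalised counts (CPM, on TMM-scaled library sizes). Pgr averaged 10.9 ± 1.67 CPM in KO-label females (SD, n = 4) and 6.58 ± 0.465 CPM in KO-label males (n = 4), against 0.128 ± 0.134 CPM in WT-label females (n = 3) and 0.0640 ± 0.0802 CPM in WT-label males (n = 4). These reads ran against the genotype labels, so every direction between genotypes below is by label only. KO-label female 2 and WT-label female 2 held reads of the Y-linked gene Uty, at 9.30 and 10.5 CPM, against at most 0.855 CPM in the other female libraries. WT-label male 2 held 54.2 CPM of Xist, against at most 2.64 CPM in the other males, and results are also given without these 3 mixed libraries. Pecam1, an endothelial adhesion receptor, divided the libraries: 9 libraries had 2.62 to 8.06 CPM, and the 6 others had 37.0 to 79.5 CPM. The 9 low-Pecam1 libraries were KO-label female 3 and 4, KO-label male 3 and 4, WT-label female 2 and 3, and WT-label male 2, 3 and 4, so each label group held libraries of either kind.

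Each gene was placed by its median CPM in the 9 low-Pecam1 libraries as a share of its median in the 6 others. A gene at 0.8 or more of that level is called holding, a gene at 0.5 or less is called depleted, and the rest are called intermediate. The classes rest on measured levels, so they describe these libraries and carry no test. For scale, 11 of 12 cardiomyocyte markers held and the remaining marker, Mybpc3, was intermediate, while 13 of 13 endothelial, 10 of 10 fibroblast, 10 of 10 leukocyte and 5 of 5 epicardial markers were depleted. Pecam1 is itself one of the 13 endothelial markers, and its own depletion was fixed by the split. None of the markers was without reads. The summed CPM of the 12 cardiomyocyte markers was 67332 to 86599 in the 9 low-Pecam1 libraries and 51452 to 81173 in the 6 others, and that of the 10 fibroblast markers was 47.3 to 179.7 in the low-Pecam1 libraries and 422.8 to 1054 in the others. Among the 9 mural markers 2 held, 1 was intermediate and 6 were depleted, and among the 7 Schwann markers 3 held, 1 was intermediate and 3 were depleted. In bulk nuclei, fewer cells of a type and less RNA per cell cannot be told apart.

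Of 9 pairs of members within 100 kb of each other, 5 shared a class. Among the rest, the sequences before the starts of some pairs are printed here because the genes share a locus but not a class. These pairs were chosen after their values were seen. How often members farther apart share a class was not computed, so the count of 5 in 9 is a description only. Col4a5 and Col4a6, encoding type IV collagen alpha5 and alpha6 chains, are transcribed in opposite directions on chromosome X from starts 1309 bases apart. Itga1 and Itga2, encoding subunits of collagen-binding integrins, lie on the minus strand of chromosome 13 with 20995 bases between them. Itgb6, encoding the beta6 subunit, is added because it had the highest level per length of any integrin subunit gene. The windows are the 250 bases before each RefSeq start (GRCm38.p6), 5′ to 3′ on the gene's strand: chrX:141475169-141475418 (plus) for Col4a5, chrX:141474077-141474326 (minus) for Col4a6, chr13:115101965-115102214 (minus) for Itga1, chr13:114932101-114932350 (minus) for Itga2 and chr2:60722604-60722853 (minus) for Itgb6. The RefSeq start lies 34 bases inside the deposited gene for Col4a5 and 40 bases inside it for Itgb6. Capitals mark GGGCGG, the core of a GC box, or CCAAT, the core of a CCAAT box, on either strand.
Col4a5: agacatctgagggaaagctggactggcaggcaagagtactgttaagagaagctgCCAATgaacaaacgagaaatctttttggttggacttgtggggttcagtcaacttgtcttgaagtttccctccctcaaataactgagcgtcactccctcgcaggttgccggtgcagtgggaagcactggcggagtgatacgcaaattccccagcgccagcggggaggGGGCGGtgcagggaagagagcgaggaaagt
Col4a6: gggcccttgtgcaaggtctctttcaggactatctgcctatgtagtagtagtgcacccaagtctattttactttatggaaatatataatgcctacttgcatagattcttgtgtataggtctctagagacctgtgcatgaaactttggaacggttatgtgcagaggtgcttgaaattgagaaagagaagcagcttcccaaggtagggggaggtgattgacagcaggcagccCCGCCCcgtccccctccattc
Itga1: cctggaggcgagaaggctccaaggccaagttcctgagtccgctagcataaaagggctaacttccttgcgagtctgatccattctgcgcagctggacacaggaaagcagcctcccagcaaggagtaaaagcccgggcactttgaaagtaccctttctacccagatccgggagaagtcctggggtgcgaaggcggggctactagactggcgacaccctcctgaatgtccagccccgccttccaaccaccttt
Itga2: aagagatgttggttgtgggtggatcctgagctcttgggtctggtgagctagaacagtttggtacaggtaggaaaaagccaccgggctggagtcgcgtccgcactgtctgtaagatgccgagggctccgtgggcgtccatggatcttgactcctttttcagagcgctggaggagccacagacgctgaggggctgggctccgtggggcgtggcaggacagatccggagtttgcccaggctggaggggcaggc
Itgb6: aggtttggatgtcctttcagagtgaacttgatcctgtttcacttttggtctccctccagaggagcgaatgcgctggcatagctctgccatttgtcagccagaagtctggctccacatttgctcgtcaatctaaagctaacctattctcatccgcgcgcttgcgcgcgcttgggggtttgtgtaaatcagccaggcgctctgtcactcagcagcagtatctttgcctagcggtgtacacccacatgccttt

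The Col4a5 window held 1 match to each motif, and the Col4a6 window held 1 GGGCGG match. The windows of Itga1, Itga2 and Itgb6 held neither, and no GGGCGG match overlapped a CCAAT match. A window was present for 53 of the 75 members. GGGCGG on either strand was found in 27 of these 53 windows and in 32.7% of all 32851 promoters of the same length. CCAAT was found in 13 of 53, against 33.8% of all promoters. Other motifs were TATAAA in 3 of 53, against 12.4% of all promoters, CATTCC in 4 of 53, against 12.6%, and AGATAA in 2 of 53, against 9.99%. By class, GGGCGG was found in 8 of 19 windows of holding genes, 3 of 7 of intermediate genes and 16 of 27 of depleted genes. A match describes these letters only and was not tested against the classes.

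Depleted genes were the largest class among the 75. Of them 27 held, 10 were intermediate and 38 were depleted, and their median ratio was 0.492. Among all 17455 genes tested 73.6% held, 11.04% were intermediate and 15.4% were depleted, with a median ratio of 1.01. Without the 3 mixed libraries the counts were 27, 11 and 37. The filter on mean count spans all libraries, so a gene with few reads in the low-Pecam1 libraries could pass through the others alone. Among the depleted genes, Col26a1, Col24a1, Col8a2 and Col6a5 had low-Pecam1 medians of 0.0756, 0.109, 0.109 and 0.113 CPM. These medians lie within the range of the libraries' 3-count floors, so the ratios of these genes are imprecise. Collagens made up most of the depleted class, with 27 of 38 depleted, 5 intermediate and 6 holding. Laminins had 1 of 10 depleted, 3 intermediate and 6 holding. Integrin subunits were divided, with 9 of 23 depleted, 2 intermediate and 12 holding.

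**Figure D1:**
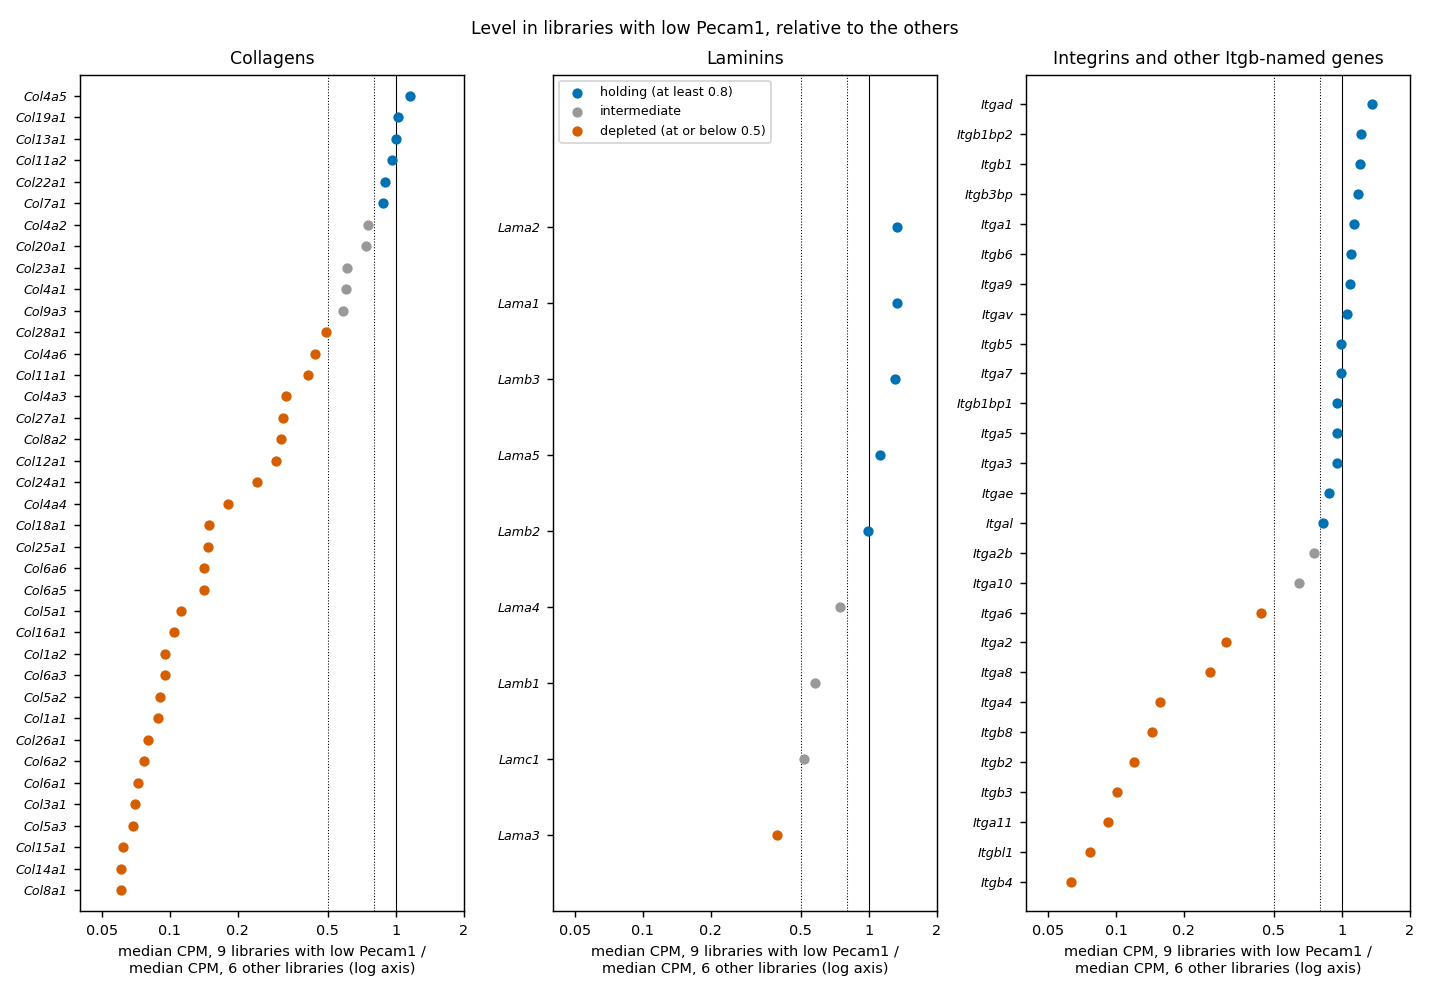
Each point is a gene (1 laminin gene is not plotted), placed by the ratio of its median CPM in the 9 low-Pecam1 libraries to its median in the 6 others, on a log axis, with dotted lines at 0.5 and 0.8 and a solid line at 1. Collagens run from 0.0604 (Col8a1) to 1.16 (Col4a5), laminins from 0.393 (Lama3) to 1.33 (Lama2), and 12 of 23 integrin subunits lie at 0.8 or above.

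In 36 of the 38 depleted genes all 9 low-Pecam1 libraries lay below all 6 others, as they did in 4 of the 10 intermediate genes and in 0 of the 27 holding genes. This was so for 13.6% of all genes tested. The classes were set from these same libraries, so the count is a description: among all 2685 genes tested that were depleted, 77.5% had all 9 low-Pecam1 libraries below the 6 others. The exceptions among the depleted genes were Col11a1 and Col28a1. All 9 libraries lay above the 6 others for Itgad alone, against 1.08% of all genes tested. Within each of the 4 label groups taken alone, the ratio was below 1 for all 38 depleted genes. This too follows in large part from how the class was set, and it was counted for members only. Each WT-label group held only 1 library with high Pecam1. Next to the lower threshold were Col28a1, depleted at 49.2%, and Lamc1, intermediate at 51.7%, and next to the upper one were Col4a2, intermediate at 75.6%, and Itgal, holding at 82.8%.

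The summed CPM of all members was 5127 in the median low-Pecam1 library and 5710 in the median other library. The holding genes made up a median of 83.9% of that sum in the low-Pecam1 libraries (range 80.5% to 87.6%) and 65.2% in the others (61.4% to 69.5%). The depleted genes made up 2.15% (1.40% to 4.71%) in the low-Pecam1 libraries and 16.5% (13.5% to 21.9%) in the others. Lama2 alone supplied 42.7% of the sum in the low-Pecam1 libraries and 31.2% in the others, and its gene body spans 640 kb. Counts include introns, so levels of different genes are compared per kb of gene body below.

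Among the fibrillar collagens 9 of 10 were depleted, and together they made up 0.915% of the members' reads in the median low-Pecam1 library and 8.21% in the median other library. Col1a1, the alpha1 chain of type I collagen (chromosome 11, 94936224 to 94953042), had 4.25 to 21.8 CPM with a median of 6.35 CPM in the low-Pecam1 libraries, against 51.8 to 118 CPM with a median of 71.4 CPM in the others. Every low-Pecam1 library was below every other library, and the median was 8.89% of that in the others. Col3a1, the chain of type III collagen, had 7.17 to 40.3 CPM with a median of 10.95 CPM in the low-Pecam1 libraries, against 104 to 297 CPM with a median of 156 CPM in the others, which is 7.04%. Col1a2, the other type I chain, had a median of 7.29 CPM in the low-Pecam1 libraries, against 76.3 CPM in the others, and Col5a1, a type V chain that helps start fibrils, had 8.26 CPM in the low-Pecam1 libraries, against 73.7 CPM in the others. WT-label male 2 was the highest low-Pecam1 library for Col1a1, Col3a1 and Col1a2, with 21.8, 40.3 and 23.8 CPM, and KO-label female 2 was the highest of all libraries for these genes, with 118, 297 and 146 CPM. Col5a2, Col5a3, Col11a1, Col24a1 and Col27a1 stood at 6.86% to 40.7%. Col11a2, a chain of the cartilage type XI collagen, held at 96.5%, with medians of 5.02 CPM in the low-Pecam1 libraries and 5.20 CPM in the others and a wide range of 2.28 to 8.97 CPM in the low-Pecam1 libraries.

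Type VI collagen, which forms beaded filaments next to basement membranes, was depleted in all 5 of its measured chains, at 7.25% to 14.2%. Col6a1 had 2.24 to 6.996 CPM with a median of 2.69 CPM in the low-Pecam1 libraries, against 27.3 to 56.2 CPM with a median of 37.1 CPM in the others. Col6a2 had medians of 3.20 CPM in the low-Pecam1 libraries and 41.6 CPM in the others, and Col6a3 had 4.08 CPM in the low-Pecam1 libraries and 42.8 CPM in the others. The multiplexins Col15a1 and Col18a1, collagens that border basement membranes, were depleted at 6.17% and 14.8%. Col15a1 had 3.64 to 22.9 CPM with a median of 5.79 CPM in the low-Pecam1 libraries, against 74.6 to 126 CPM with a median of 93.8 CPM in the others. WT-label male 2 was again the highest of the low-Pecam1 libraries. The short-chain collagens Col8a1 and Col8a2 stood at 6.04% and 31.1%, and Col14a1, which coats fibril surfaces, at 6.09%.

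Type IV collagen, the network former of basement membranes, had members in each class. Col4a5 held at 116%, with 232 to 406 CPM and a median of 294 CPM in the low-Pecam1 libraries, against 194 to 282 CPM and a median of 253 CPM in the others. These ranges overlapped. Col4a6, its neighbour on chromosome X, was depleted at 44.0%, with 2.22 to 3.60 CPM and a median of 2.86 CPM in the low-Pecam1 libraries, against 5.29 to 10.7 CPM and a median of 6.49 CPM in the others, and its ranges did not overlap. Col4a1 and Col4a2, whose chains form the most widespread type IV trimer and whose genes start within 22 bases of each other on chromosome 8, were intermediate.

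Col4a1 had 93.3 to 160 CPM with a median of 124 CPM in the low-Pecam1 libraries, against 169 to 244 CPM with a median of 206 CPM in the others, which is 60.3%. Its ranges lay apart by a narrow margin. Col4a2 had 159 to 268 CPM with a median of 188 CPM in the low-Pecam1 libraries, against 170 to 292 CPM with a median of 249 CPM in the others, which is 75.6%, and its ranges overlapped. The Col4a2 ratio was 0.997 in KO-label libraries alone, 4 low-Pecam1 and 4 others, and 0.660 in WT-label libraries alone, 5 low-Pecam1 and 2 others; this difference was not tested. Col4a3 and Col4a4, a divergent pair on chromosome 1 known from the kidney filter, were depleted at 32.5% and 18.1%.

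The other collagens that held were Col13a1, a transmembrane collagen of the neuromuscular junction, at 100%, Col22a1, known from the myotendinous junction, at 89.7%, Col19a1 at 103% and Col7a1, the anchoring fibril collagen of skin, at 87.5%. Col13a1 had medians of 16.3 CPM in either set of libraries. The rest of these were low, with medians in the low-Pecam1 libraries of 1.64, 0.241 and 0.401 CPM for Col22a1, Col19a1 and Col7a1, against 1.83, 0.234 and 0.458 CPM in the others. In WT-label libraries alone Col7a1 was depleted, at a ratio of 0.399. Col9a3, Col20a1 and the transmembrane Col23a1 were intermediate at 58.2% to 73.9%. Col12a1, Col16a1, Col25a1, Col26a1 and Col28a1 were depleted at 7.998% to 49.2%.

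Laminin chain genes were found in each class. Lama2, the alpha chain of the laminins that bind striated muscle (chromosome 10), had 1593 to 2752 CPM with a median of 2306 CPM in the low-Pecam1 libraries, against 1614 to 2410 CPM with a median of 1732 CPM in the others, which is 133%. The ranges overlapped almost wholly. Lamb2, a beta chain found at neuromuscular junctions and in muscle basement membrane, had 116 to 190 CPM with a median of 150 CPM in the low-Pecam1 libraries, against 118 to 186 CPM with a median of 151 CPM in the others, which is 99.1%. In WT-label libraries alone the Lamb2 ratio was 0.722, which is intermediate. Lamb1 and Lamc1, the beta1 and gamma1 chains that join alpha chains in many tissues, were intermediate at 57.7% and 51.7%.

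Lamc1 had 124 to 158 CPM with a median of 133 CPM in the low-Pecam1 libraries, against 213 to 368 CPM with a median of 258 CPM in the others. Its ranges did not overlap, although the low-Pecam1 libraries kept a level well above the 3-count floor. Lamb1 had 41.2 to 90.3 CPM with a median of 48.0 CPM in the low-Pecam1 libraries, against 73.2 to 127 CPM with a median of 83.2 CPM in the others, and its ranges overlapped. Lama4, the alpha chain of vessel walls, stood at 74.9%, with 114 to 162 CPM and a median of 141 CPM in the low-Pecam1 libraries, against 174 to 223 CPM and a median of 188 CPM in the others. Its ranges did not overlap.

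Lama5, a broadly expressed alpha chain, held at 112%, with medians of 69.0 CPM in the low-Pecam1 libraries and 61.4 CPM in the others. Lama3 and Lamb3, which encode chains of an epithelial laminin, did not share a class: Lama3 was depleted at 39.3%, while Lamb3 held at 131%. Lamb3 lies under genes of its own strand over 15.5% of its length, so its counts could lack reads from the shared stretches. Genes of the opposite strand overlap 32.8% of it. Whether their reads enter the counts of these strand-aware libraries was not tested. Lama1 held at 133% with medians of 0.333 CPM in the low-Pecam1 libraries and 0.251 CPM in the others.

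Integrin alpha genes followed no single class within a ligand group. Of the laminin-binding subunits, Itga7, the main alpha subunit of adult striated muscle, held at 98.8%, with 65.2 to 92.7 CPM and a median of 78.0 CPM in the low-Pecam1 libraries, against 64.1 to 95.9 CPM and a median of 78.9 CPM in the others. Itga3 held at 94.9%. Itga6, a subunit of epithelial and endothelial laminin receptors, was depleted at 44.1%, with 7.17 to 15.1 CPM and a median of 12.2 CPM in the low-Pecam1 libraries, against 24.5 to 31.6 CPM and a median of 27.6 CPM in the others. The first pair of ranges overlapped, whereas those of Itga6 did not.

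Of the collagen-binding subunits, Itga1 held at 114%, with medians of 76.2 CPM in the low-Pecam1 libraries and 66.9 CPM in the others, and its neighbour Itga2 was depleted at 30.8%, with medians of 0.692 CPM in the low-Pecam1 libraries and 2.25 CPM in the others. Genes on the same strand overlap 44.8% of Itga1, so its counts could lack reads from the shared stretches. Pelo, which is among these genes, had 0 CPM in every library. Itga11, a fibroblast collagen receptor subunit, was depleted at 9.24%, and Itga10 was intermediate at 64.5%. A gene on the same strand overlaps 39.7% of Itga10, so its counts carry the same limit. Of the subunits that bind the RGD motif, Itga5, the fibronectin receptor subunit, held at 95.2% with medians of 56.3 CPM in the low-Pecam1 libraries and 59.1 CPM in the others. Itgav, the vitronectin receptor subunit, held at 105%, with medians of 41.0 CPM in the low-Pecam1 libraries and 38.9 CPM in the others, and Itga8, a mesenchymal subunit, was depleted at 25.995%. Itga9, which binds tenascin and osteopontin, held at 109% with medians of 334 CPM in the low-Pecam1 libraries and 307 CPM in the others, with a ratio of 0.729, intermediate, in WT-label libraries alone, while Itga4, a leukocyte subunit that also binds fibronectin, was depleted at 15.6%.

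Integrin beta genes were either holding or depleted, with none between. Itgb1, the shared partner of most alpha subunits, had 117 to 197 CPM with a median of 163 CPM in the low-Pecam1 libraries, against 126 to 226 CPM with a median of 135 CPM in the others, which is 120%. Itgb6, known in epithelia for activating latent TGF-beta together with alphav, had 385 to 677 CPM with a median of 585 CPM in the low-Pecam1 libraries, against 304 to 633 CPM with a median of 533 CPM in the others, which is 110%. The ranges of both genes overlapped. Itgb5, another partner of alphav, held at 99.5% with medians of 102 CPM in either set.

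Itgb2, the leukocyte beta subunit, stood at 12.0%, Itgb3, of platelets and vessels, at 10.1%, Itgb4, of hemidesmosomes, at 6.30%, and Itgb8 at 14.5%. Their medians in the low-Pecam1 libraries were 0.191, 0.306, 0.191 and 1.02 CPM, against 1.59, 3.04, 3.03 and 7.07 CPM in the others. All of these ranges lay apart. Itgal, Itgae and Itgad, alpha genes of leukocytes, held at 82.8%, 87.8% and 136%. Their medians in the low-Pecam1 libraries were 1.19, 0.451 and 6.54 CPM. Itgal left the holding class with CPM on unscaled total counts. It also did so without KO-label male 4, WT-label female 2, WT-label female 3 or WT-label male 4. Itgae left it on unscaled total counts and in WT-label libraries alone. The gene body of Itgad is overlapped over 27.5% of its length on the opposite strand, including by Cox6a2, a muscle subunit of cytochrome c oxidase with 10.03 to 40.4 CPM. The part of these overlaps in the values was not tested. Itga2b, the platelet alpha subunit, was intermediate at 75.5%.

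Of the remaining genes with an Itgb symbol, Itgb1bp2, which encodes melusin, a muscle chaperone that binds the beta1 tail, had 78.0 to 118 CPM with a median of 109 CPM in the low-Pecam1 libraries, against 74.5 to 99.6 CPM with a median of 89.8 CPM in the others, which is 121%. Itgb1bp1, which encodes a regulator of beta1 activation, and Itgb3bp, which encodes a centromere protein, held at 95.2% and 118%. Opposite-strand genes cover 66.5% and 51.1% of them, and whether reads of those genes enter these strand-aware counts was not tested. Itgbl1, which encodes a secreted integrin-like protein, was depleted at 7.69%, with medians of 2.67 CPM in the low-Pecam1 libraries and 34.7 CPM in the others.

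**Figure D2:**
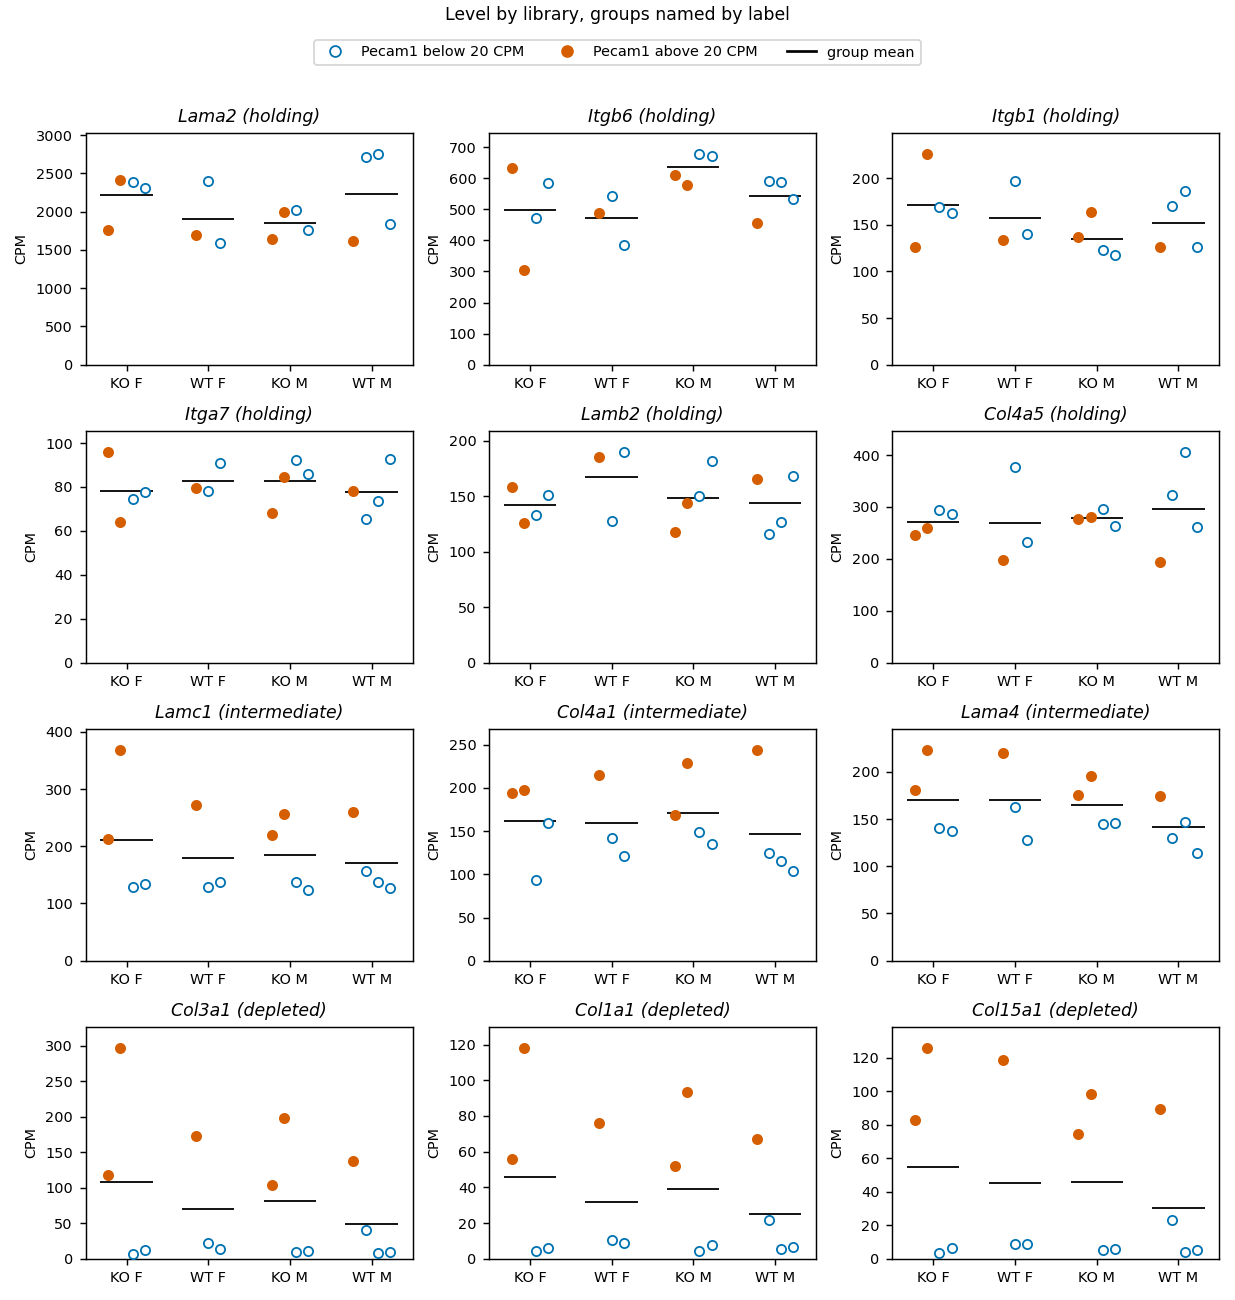
Normalised counts (CPM, linear axes from 0) of 12 genes in each library, by label group, with open points for the 9 libraries with Pecam1 below 20 CPM, filled points for the 6 others and a line at each group's mean. Open and filled points mix for Lama2, Itgb6, Itgb1, Itga7, Lamb2 and Col4a5, lie apart by a smaller margin for Lamc1, Col4a1 and Lama4, and lie far apart for Col3a1, Col1a1 and Col15a1.

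Per kb of gene body, Itgb1bp2 was the highest member, at a mean of 21.9 CPM per kb over all libraries, followed by Lamb2 at 13.9 CPM per kb. Itgb6 had 4.35, Itga7 3.27, Itgb1 3.23, Lama2 3.22 and Itga5 2.49 CPM per kb, and every one of these genes held. The first depleted genes in the order were Col1a1 at 2.13 and Col3a1 at 2.03 CPM per kb. In the low-Pecam1 libraries Col1a1 had a median of 0.378 CPM per kb and Col3a1 0.287, against 4.25 and 4.08 CPM per kb in the others, where they stood beside Itgb6 at 4.29 CPM per kb. By median CPM per kb, laminin chain genes of the low-Pecam1 libraries stood in the order Lamb2 (13.9), Lama2 (3.60), Lama5 (1.39), Lamc1 (1.17), Lama4 (0.972) and Lamb1 (0.745), and the library ranges of neighbours overlapped from Lama5 on. In the 6 others the order was Lamb2 (14.03), Lama2 (2.71), Lamc1 (2.27), Lama4 (1.298), Lamb1 (1.291) and Lama5 (1.24). There the ranges of Lama2 and Lamc1 overlapped, as did those of Lama4, Lamb1 and Lama5. This scale is that of nuclear RNA over the whole gene, introns included. Itgb1bp2 and Lamb2 span 4454 and 10795 bases, against 639723 bases for Lama2. The part of gene length in the order per kb was not tested.

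**Figure D3:**
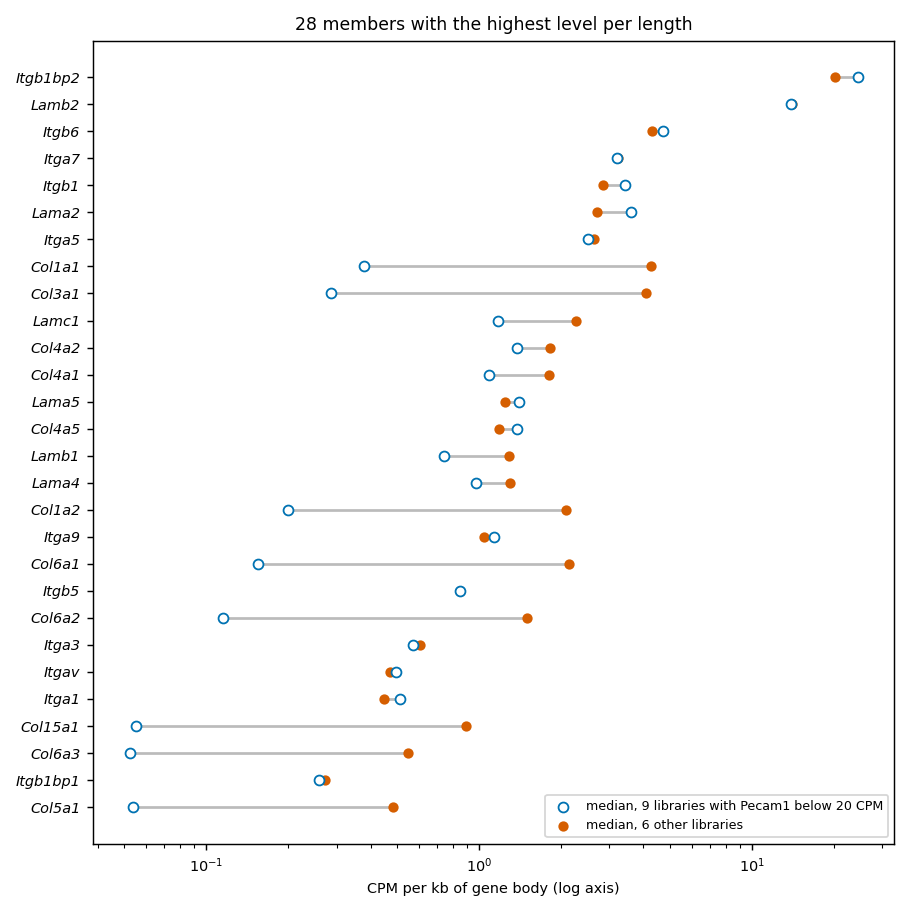
Median CPM per kb of gene body (log axis) of the 28 members with the highest mean, in the 9 libraries with Pecam1 below 20 CPM (open) and the 6 others (filled). The lines are short for Itgb1bp2, Lamb2, Itgb6 and Itga7 and span about an order of magnitude for the fibrillar and type VI collagens, as for Col1a1 at 0.378 against 4.25 CPM per kb.

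The partner genes of matrix assembly and adhesion were divided too, and their counts are read against the 73.6% of all genes tested that held and the 15.4% that were depleted. Of 8 genes of basement membrane and matrix, 6 were depleted, among them Nid1, a linker of laminin to collagen IV, at 7.93%, and Fn1, fibronectin, at 7.90%. Agrn, the laminin-binding proteoglycan agrin, held at 84.3%, and Hspg2, which encodes perlecan, was intermediate at 54.6%. Of 21 genes of collagen processing, 7 held, 3 were intermediate and 11 were depleted. The prolyl hydroxylase subunits P4ha1 and P4ha2 and the lysyl hydroxylase Plod2 held at 84.6%, 98.7% and 116%. The crosslinking enzyme genes Lox, Loxl1, Loxl2, Loxl3 and Loxl4 were depleted at 8.19% to 40.1%. Lox, Loxl3 and Loxl4 had low-Pecam1 medians of only 0.146, 0.211 and 0.263 CPM, so their ratios are imprecise. For Loxl4 the ranges of the low-Pecam1 and other libraries overlapped.

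Of 15 genes for integrin adaptors and signalling proteins of adhesion sites, 10 held, 5 were intermediate and 0 were depleted, so that most held, as did most genes tested. Tln2 and Vcl, encoding talin 2 and vinculin, stood at 112% and 125%, with medians of 260 and 427 CPM in the low-Pecam1 libraries, against 233 and 342 CPM in the others. Tln1, encoding the more widespread talin 1, was intermediate at 52.4%. Of 9 other matrix receptor genes, Dag1, encoding dystroglycan, held at 116%, with medians of 389 CPM in the low-Pecam1 libraries and 336 CPM in the others, and Ddr2, encoding a collagen receptor kinase of fibroblasts, was depleted at 12.7%. In all, 4 of the 9 held, 2 were intermediate and 3 were depleted.

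The label groups were then compared over all 17455 genes with edgeR's quasi-likelihood test and Benjamini-Hochberg adjustment at 0.05. None of the 75 members was called in any of 5 comparisons: KO minus WT among females and among males, the difference of those effects (females minus males), and female minus male under either label. Calls over all genes were 0%, 0.0115%, 0%, 0.0229% and 0% of those tested, in that order, so few genes of any kind passed. At an unadjusted p below 0.05 the members numbered 0, 0, 1, 2 and 1 of 75, against 1.74%, 1.42%, 2.49%, 6.37% and 2.09% of all genes. DESeq2 and limma-voom also called 0 members in every comparison. A miss of the threshold does not show that levels were alike. The intervals below come from a fit of group means only, without a term for low Pecam1. Its common dispersion, a measure of spread between libraries, was 0.163, against 0.0434 with such a term. The intervals therefore hold for that fit and need not be the narrowest that these libraries allow.

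The precision differed by class. In the comparison of KO with WT label in females, the standard error (SE) of the log2 fold change had a median of 0.21 for holding members and 1.23 for depleted ones. Every label group held libraries with high and with low Pecam1. A larger SE of depleted members therefore follows in large part from how the class was set. Col1a1 averaged 45.9 ± 53.6 CPM in KO-label females (SD, n = 4) and 31.8 ± 38.1 CPM in WT-label females (n = 3), with single values of 55.8, 118, 4.25 and 5.81 CPM against 75.8, 10.6 and 8.87 CPM. Within each group the high values belonged to libraries with high Pecam1, and the groups overlapped. KO minus WT gave a log2 fold change of 0.54 with a 95% interval of -2.42 to 3.50 (adjusted p = 1, edgeR).

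In males Col1a1 had 51.8, 93.1, 4.53 and 7.58 CPM under the KO label, against 67.1, 21.8, 5.21 and 6.35 CPM under the WT label. Here too the libraries overlapped, with a log2 fold change of 0.64 and an interval of -2.07 to 3.36 (adjusted p = 0.999, edgeR). Col3a1 and Col15a1 had similarly wide intervals, of -2.56 to 3.83 and -3.01 to 3.55 in females and -2.22 to 3.65 and -2.43 to 3.63 in males. Each of these groups held libraries with high and with low Pecam1.

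Over the members the median log2 fold change was 0.16 in females and 0.27 in males for KO minus WT label, against 0.03 and 0.02 over all genes. For depleted members alone these medians were 0.34 and 0.46, and for holding members 0.02 and 0.11. The WT-label groups held 2 of 3 and 3 of 4 low-Pecam1 libraries and the KO-label groups 2 of 4 each. In the same comparisons the 13 endothelial markers had medians of 0.54 and 0.57 and the 10 fibroblast markers 0.51 and 0.64, and the part of this in the members' medians was not tested.

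Lama2 had 1766, 2410, 2385 and 2306 CPM in KO-label females, against 1698, 2400 and 1593 CPM in WT-label females. In males it had 1643, 1999, 2022 and 1765 CPM under the KO label, against 1614, 2717, 2752 and 1838 CPM under the WT label. The groups overlapped in either sex. KO minus WT gave log2 fold changes of 0.22 ± 0.21 (SE) in females and of -0.26 ± 0.19 in males, and the difference between them was 0.49 with an interval of -0.13 to 1.103 (adjusted p = 1, edgeR).

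Itgb6 had 633, 304, 471 and 585 CPM in KO-label females and 610, 578, 677 and 672 CPM in KO-label males, against 488, 543 and 385 CPM in WT-label females and 456, 592, 586 and 534 CPM in WT-label males. KO-label female 2 was the lowest library of all. The log2 fold change between the labels was 0.08 with an interval of -0.37 to 0.52 in females and 0.23 with an interval of -0.19 to 0.64 in males.

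For the other genes of muscle adhesion the intervals were as narrow. Itgb1 differed by 0.12 (-0.33 to 0.58) on the log2 scale between labels in females and by -0.17 (-0.59 to 0.25) in males. In the same order of sexes, Itga7 differed by -0.09 (-0.41 to 0.24) and 0.09 (-0.21 to 0.40), Lamb2 by -0.24 (-0.63 to 0.16) and 0.04 (-0.32 to 0.41), and Itgb1bp2 by -0.14 (-0.49 to 0.22) and 0.03 (-0.30 to 0.36). Each of these intervals spans 0 and stays within 1 log2 unit. Among the basement membrane genes, Col4a5 differed by 0.01 (-0.48 to 0.51) and -0.08 (-0.54 to 0.38), Col4a1 by 0.02 (-0.69 to 0.73) and 0.22 (-0.44 to 0.87), Col4a2 by -0.05 (-0.52 to 0.42) and 0.29 (-0.15 to 0.72), Lama4 by 0.00 (-0.46 to 0.46) and 0.23 (-0.20 to 0.65), and Lamc1 by 0.23 (-0.67 to 1.14) and 0.11 (-0.72 to 0.94).

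**Figure D4:**
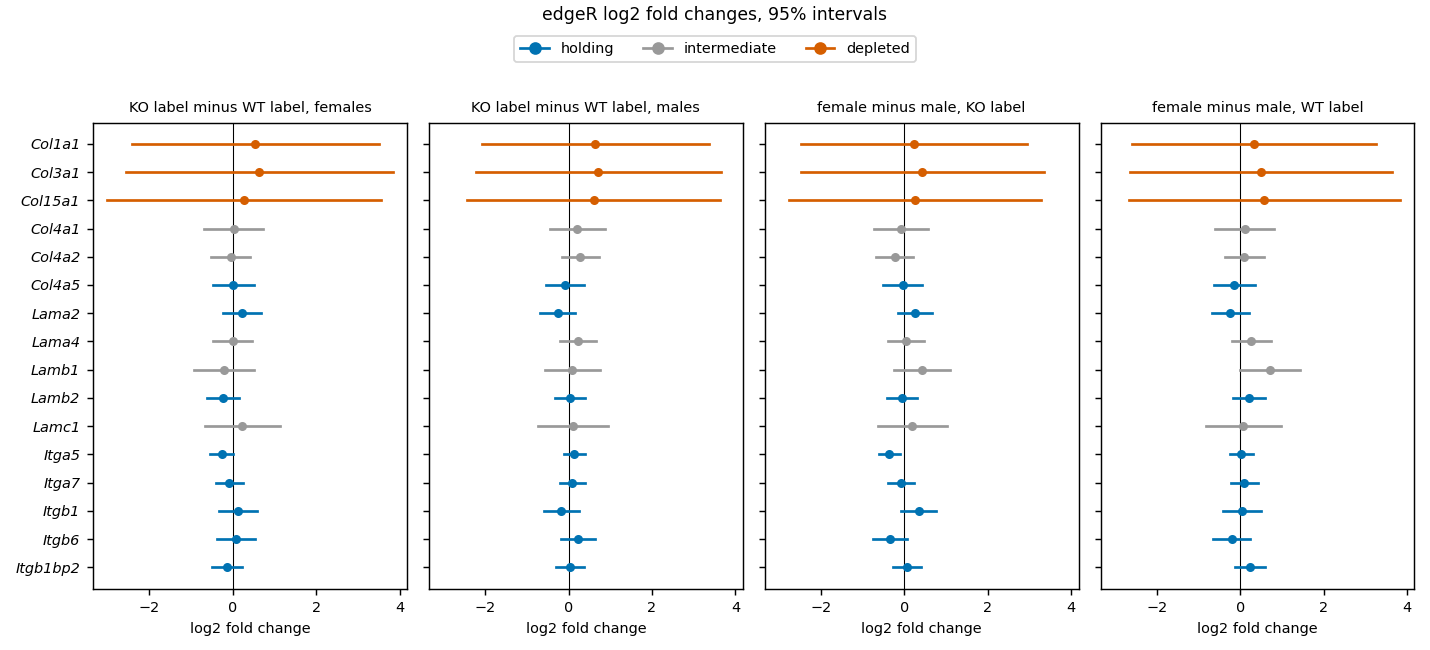
Log2 fold changes (points) with 95% intervals (lines) from edgeR for 16 members in 4 comparisons by label. Holding genes have short intervals near 0, as for Itga7 (-0.41 to 0.24 for KO minus WT in females), and the depleted Col1a1, Col3a1 and Col15a1 have intervals several log2 units wide. This contrast follows in large part from how the classes were set.

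Itga5 had the smallest unadjusted p of any member in the comparison of the sexes under the KO label. It had 60.4, 46.0, 41.6 and 44.97 CPM in KO-label females, against 56.7, 67.2, 59.4 and 64.9 CPM in KO-label males. Apart from KO-label female 1, the females lay below all the males. Female minus male gave a log2 fold change of -0.36 ± 0.12 (SE; unadjusted p = 0.00826, adjusted p = 0.757, edgeR), and it was -0.37 with a term for low Pecam1 (adjusted p = 0.381). Under the WT label Itga5 had 57.9, 55.3 and 60.1 CPM in females, against 62.2, 49.2, 56.3 and 58.1 CPM in males, with a log2 fold change of 0.03 (-0.24 to 0.31). The difference of the KO minus WT effects between the sexes was -0.40 (-0.77 to -0.02; unadjusted p = 0.0389, adjusted p = 1, edgeR).

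Col22a1 was the only member whose libraries lay wholly apart between 2 label groups of those compared, lower in KO-label females than in KO-label males, as were 1.92% of all genes. It had 1.37, 0.605, 1.26 and 1.21 CPM in KO-label females, against 1.83, 3.91, 1.81 and 1.64 CPM in KO-label males. In the other directions and group pairs 0 of 75 members lay apart, against 0.905% (higher) and 1.01% (lower) of all genes for KO over WT label in females, 0.756% and 0.842% in males, 1.26% (higher) for females over males under the KO label, and 1.06% and 1.89% under the WT label. For Col22a1 all KO-label females were below all KO-label males, and KO-label male 2 was far above the other males. Female minus male gave -1.05 ± 0.37 on the log2 scale (SE; unadjusted p = 0.0129, adjusted p = 0.757, edgeR), and it was -0.48 in the low-Pecam1 libraries alone (adjusted p = 0.655). Under the WT label the groups overlapped, with 1.83, 1.83 and 0.733 CPM in females, against 2.03, 1.71, 1.74 and 1.21 CPM in males.

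Lamb1 had 111, 90.3 and 79.2 CPM in WT-label females, against 86.8, 51.9, 48.0 and 41.2 CPM in WT-label males. The only male library within the female range was replicate 1, the one with high Pecam1. The log2 fold change was 0.72 ± 0.33 (SE; unadjusted p = 0.0487, adjusted p = 1, edgeR), and it was 0.85 in the low-Pecam1 libraries alone (adjusted p = 0.752). Under the KO label Lamb1 had 78.7, 127, 46.1 and 73.4 CPM in females, against 73.2, 79.6, 45.9 and 44.4 CPM in males, with a log2 fold change of 0.42 (-0.24 to 1.09). Without the 3 mixed libraries it was 0.12 (adjusted p = 0.971).

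Other members with the smallest p in a direction were weaker still. For KO minus WT in females they were Itga1 at 0.30 ± 0.17 (SE) on the log2 scale, Col4a6 at 0.69 ± 0.54 and Col28a1 at 0.68 ± 0.55, and, lower under the KO label, Itga5 at -0.26 ± 0.13, Col7a1 at -0.72 ± 0.53 and Lamb2 at -0.24 ± 0.18 (adjusted p = 1 each, edgeR). The Col7a1 value turned to 0.13 in low-Pecam1 libraries alone and to 0.16 without WT-label female 1. In males they were Col13a1 at 0.46 ± 0.25, Col20a1 at 0.45 ± 0.29 and Col4a2 at 0.29 ± 0.20, and, lower, Lama2, Itgb1 and Itgad at -0.15 ± 0.21 (adjusted p = 0.999 each, edgeR). For female minus male they were Itgb1, Lamb1 and Lama2, higher, and Itga5, Col22a1 and Itgb6, lower, under the KO label. Under the WT label they were Lamb1, Itgal at 0.61 ± 0.36 and Lamb3 at 0.43 ± 0.26, higher, and Itga1, Lama2 and Itgb5 at -0.19 ± 0.17, lower. For the difference of the effects they were Lama2, Itga1 and Itgb1, higher, and Itga5, Col22a1 and Col7a1 at -1.03 ± 0.72, lower.

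No partner gene was called either. Plod2, which hydroxylates lysines of collagen telopeptides, differed between labels by 0.42 (-0.01 to 0.84) on the log2 scale in females and by -0.39 (-0.78 to -0.00) in males, and the difference between these effects was 0.81 (0.23 to 1.38; unadjusted p = 0.00925, adjusted p = 1, edgeR). Cd44, a hyaluronan receptor, differed by 0.54 (0.14 to 0.95) between the sexes under the WT label (unadjusted p = 0.0116, adjusted p = 1, edgeR). Neither gene passed the adjustment, and both held their level in the low-Pecam1 libraries.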

How the data were processed

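Nuclear RNA of 15 libraries was sequenced, and the files the authors deposited give unnormalised counts of reads for each gene. The authors used STAR 2.5.3a and featureCounts 1.5.0 on GRCm38 (mm10), per the submitters' processing notes. In the deposited table gene length equals end minus start plus 1 in 100% of 55536 genes, so the counts are read as covering whole gene bodies, introns included. A smaller table holds 16610 of them with identical counts. Everything was computed from the larger table.

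In R 4.3.3, filterByExpr of edgeR 4.0.16 kept 17455 genes, including all 75 members, and TMM scaling was used. Quasi-likelihood models (glmQLFit, robust) with 1 mean per group were fitted to all 15 libraries, with 11 residual degrees of freedom. Benjamini-Hochberg adjustment ran over all tested genes, and the threshold was 0.05. Intervals are 95% intervals from the estimate and its F statistic. Named genes are the 8 holding and 8 depleted members highest per kb, the 3 members with the smallest p in each direction of each comparison, 13 chosen genes and the members beside the class thresholds. Members, lists, classes and this rule were chosen with earlier results of these data known. Depth, at 24.4 to 139.4 M counts, sets a floor of 3 counts per library, which covers counting error only. Alternatives were DESeq2 1.42.0, limma-voom (limma 3.58.1), other scaling, no filter, a replicate block, a term for low Pecam1, subsets of libraries and leaving out each library. The edgeR scripts were tested on simulated data. The simulation used the lower dispersion of the fit with a low-Pecam1 term and put no Pecam1 difference into the means. It therefore cannot show how the tests perform at the spread of these libraries.

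Replicate numbers come from the sample titles. Deviations from group means correlated between same-numbered libraries at 0.139 to 0.734 in males, 0.511 to 0.857 between the KO-label sexes and 0.306 to 0.885 between the WT-label sexes. Each of these was above 0.1, the threshold set for pairs, whereas in females the correlations were -0.382 to 0.749. Replicate 1 had high Pecam1 in every label group, and replicates 3 and 4 had low Pecam1 wherever present. The correlations therefore cannot tell pairs from a shared Pecam1 level. The titles name no pairs, and the main fit used none, with a replicate block as an alternative. RefSeq promoter windows are of GRCm38.p6. For 1 laminin gene, which is included in the counts of members and classes, its own values are not reported here.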

Additional observations from a re-analysis of the deposited data

Results flagged for a closer look

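In the groups of 4 libraries, a library was picked out where its gap to the nearest of the others, as a share of the group's whole range, passed the 95% critical value of Dixon's test. Over the 32 named genes this was so in 11 of 96 groups. The usual rate of about 1 in 20 is no yardstick here, since some genes were named by their class, set from these same libraries. In a group with only 1 high-Pecam1 library, a depleted gene tends to give a lone high value by how it was chosen. WT-label male 1, the only library of its group with high Pecam1, was the high value in 6 of them: Col28a1 at 1.70 CPM (others 0.519 to 0.691), Col4a1 at 243.7 CPM (104.3 to 124.5), Col4a2 at 291.8 CPM (165.0 to 180.5), Col4a6 at 5.71 CPM (2.68 to 3.01), Col5a1 at 80.0 CPM (7.38 to 18.3) and Col6a1 at 31.7 CPM (2.24 to 6.996). Each of these genes is depleted or intermediate in the low-Pecam1 libraries. KO-label female 2, the library with the most Pecam1, was high for Col28a1 at 2.21 CPM (0.586 to 0.794).

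Holding genes were picked out in the other 4 groups. WT-label male 4 was high for Itgb5 at 119.4 CPM (100.4 to 101.6) and for Lama5 at 94.6 CPM (61.0 to 63.9). KO-label male 2 was high for Col22a1 at 3.91 CPM (1.64 to 1.83). KO-label female 1 was low for Lama2 at 1766 CPM (2306 to 2410).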

How the results depend on the processing

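No member was called in any comparison under any alternative run, leaving out each library included. The smallest adjusted p of a member when 1 library was left out was 0.103, for female minus male under the KO label. Genes called over the whole table moved as follows, with leaving out each library in turn as a range. KO minus WT in females (0) gave 3 by DESeq2, 1 by limma-voom and 1 with the low-Pecam1 term. In males (2) it gave 0 with RLE scaling, 4 by DESeq2, 0 in the low-Pecam1 libraries alone, 0 without the 3 mixed libraries, and 0 to 1 without single libraries. The difference of the effects (0) gave 1 by DESeq2. Female minus male under the KO label (4) gave 2 without a filter, 57 by DESeq2, 9 by limma-voom, 13 with the replicate block, 11 with the low-Pecam1 term, 1 in low-Pecam1 libraries alone, 7 without the 3 mixed libraries, and 0 to 10 without single libraries. Under the WT label (0) it gave 1 without a filter, 14 by DESeq2, 6 by limma-voom, 1 with the replicate block, 1 with the term, 1 in low-Pecam1 libraries alone, 6 without the 3 mixed libraries, and 0 to 2 without single libraries. The cause was not tested. The block changed no call of a member. The log2 fold change of Col7a1 in females turned to 0.13 in low-Pecam1 libraries alone and lay between -1.10 and 0.16 without single libraries, at 0.16 without WT-label female 1. Classes of 68 to 75 of the 75 members were kept where the thresholds stayed at 0.8 and 0.5. A run with both thresholds lowered is not in that count. With it included, 22 to 31 held, 8 to 14 were intermediate and 34 to 40 were depleted. Col7a1 alone switched from holding to depleted, at a ratio of 0.399 in WT-label libraries alone. In those libraries Lamb2, Itga9, Col11a2 and Itgae went from holding to intermediate, Col9a3 from intermediate to depleted and Col28a1 from depleted to intermediate. In KO-label libraries alone Col4a2, Col20a1, Itga2b and Col9a3 went from intermediate to holding, Col19a1 from holding to intermediate and Col28a1 from depleted to intermediate. The common dispersion was 0.163, and 0.0434 with the low-Pecam1 term.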
